A study of Mus musculus with 4 samples.

Results

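HNG loci are 3349 of the 34315 features in the count table of this series, and they are transcribed stretches that carry a serial name (HNG and a number) where other rows carry a gene symbol. They were chosen by that name alone, with earlier results of these data known. How the loci were defined is not stated, and reads of these libraries may have entered their definition. For 27 of them no read was counted in either arm. The sources used here do not say what the letters stand for. The cells were haematopoietic stem cells (HSCs) of C57BL/6 mice, taken from bone marrow and sorted as SP-KSL-CD150+, a gate that combines dye efflux, absence of lineage markers, Kit and Sca-1 with the stem cell marker CD150. RNA selected for its polyA tail was sequenced in 4 wild-type libraries, each labelled a technical replicate of 1 biological replicate. The other arm, headed ko3a, comes from HSCs labelled Dnmt3a-KO, sorted on the same markers. It enters here only through the mean, fold change and adjusted p-value in the authors' deposited table. Dnmt3a is one of the enzymes that place methyl groups on cytosine without a methylated template. The sources used here do not give the deletion allele, the Cre driver or the age of the animals.

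The wild-type libraries held 40709659 to 47408552 counts. Libraries 1 and 2 were close to each other, with a median chi-square of 0.796 per degree of freedom over 1660 HNG loci. Libraries 3 and 4 gave 0.895 over 1412. Both medians are somewhat above what counting noise alone gives, so the spread within a pair was more than counting noise. Between the pairs the lowest median was 3.65. Each pair was therefore averaged and counted as 1 sample. The series' design text says duplicate, whereas every library is labelled a technical replicate of 1 biological replicate. Whether the pairs came from different animals is therefore not known, and their difference may be technical or biological. Marker genes of stem cells took 0.553% (libraries 1 and 2) and 0.627% (libraries 3 and 4) of wild-type counts, beside 0.478% of the ko3a mean, and none of the 15 was under 10 normalised counts in wild type. Neutrophil markers took 0.119%, 0.0229% and 0.0559%, and lymphoid markers under 0.001% in each, with Cd3e, Cd8a and Ebf1 below 10 normalised counts. Erythroid markers took 0.00877%, 0.00695% and 0.00125%, and mast cell markers 0.00204%, 0.00348% and 0.000165%. Stromal and endothelial markers took 0.00964%, 0.0135% and 0.00629%. All of these lists except the neutrophil one were lowest in the ko3a mean. Dnmt3a itself stood at 8257, 8599, 5419 and 5226 normalised counts in the 4 wild-type libraries and at 8453 in the ko3a mean. A whole-gene count does not check a deletion of single exons, so the direction of every comparison with the ko3a arm rests on its heading. In these bulk samples, fewer cells of a type and less RNA per cell cannot be told apart.

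RNA sequencing of polyadenylated RNA picks up many stretches outside annotated protein-coding genes. They include long noncoding RNAs, transcripts that leave a gene's promoter in the opposite direction, extensions past the annotated end of a gene, and processed pseudogenes, which are copies of mRNAs inserted back into the genome. The kit named in the labels does not mark strand, so the strand given to an HNG locus was not measured from the reads by that kit, and reads of features that overlap on opposite strands cannot be told apart.

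Of the HNG loci nearest to a named gene with a gap of at most 1 kb, the most frequent layout was divergent, in which the locus points away from the start of the gene and the stretch between them is the gene's promoter. Among the 166 divergent loci of this kind, 146 were tested, and the authors' deposited table called 1 higher and 4 lower in the ko3a arm, where it called 3.15% of all features tested higher and 3.7% lower. The promoters below are those of the called loci for which RefSeq (GRCm38.p6) gave a start site within 10 bp of the gene's span in the table, plus that of Gata2, a transcription factor needed by stem cells. They were chosen after the values were seen. Each is the 250 bases before the gene's start, 5′ to 3′ on the gene's strand, with CpG dinucleotides, the positions that DNA methyltransferases modify, in capitals. Naa38 in the table is Lsm8 in RefSeq, and the HNG loci themselves have coordinates on another build (mm9), for which no sequence was used here.
Lsm8 promoter, chr6:18848385-18848634, plus strand: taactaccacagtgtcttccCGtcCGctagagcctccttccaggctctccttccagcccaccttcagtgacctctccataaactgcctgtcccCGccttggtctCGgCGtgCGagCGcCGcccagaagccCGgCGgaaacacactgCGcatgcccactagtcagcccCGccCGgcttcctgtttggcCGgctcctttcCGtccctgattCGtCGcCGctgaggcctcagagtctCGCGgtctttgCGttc
Pik3r5 promoter, chr11:68431875-68432124, plus strand: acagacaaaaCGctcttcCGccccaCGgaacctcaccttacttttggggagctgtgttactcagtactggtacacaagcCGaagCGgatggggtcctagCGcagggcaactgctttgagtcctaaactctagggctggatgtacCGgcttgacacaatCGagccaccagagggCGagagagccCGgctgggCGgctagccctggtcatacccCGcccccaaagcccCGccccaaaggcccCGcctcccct
Il12a promoter, chr3:68690394-68690643, plus strand: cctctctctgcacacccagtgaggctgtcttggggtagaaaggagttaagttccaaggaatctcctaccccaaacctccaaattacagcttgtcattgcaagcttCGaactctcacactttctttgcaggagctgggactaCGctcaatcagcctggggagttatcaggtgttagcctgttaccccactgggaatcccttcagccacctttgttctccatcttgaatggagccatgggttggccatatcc
Gata2 promoter, chr6:88198414-88198663, plus strand: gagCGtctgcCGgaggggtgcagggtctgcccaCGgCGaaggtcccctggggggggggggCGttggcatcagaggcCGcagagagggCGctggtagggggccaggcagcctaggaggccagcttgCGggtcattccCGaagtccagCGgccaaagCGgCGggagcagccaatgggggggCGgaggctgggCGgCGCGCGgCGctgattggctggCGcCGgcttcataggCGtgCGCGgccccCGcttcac

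Those promoters differ in CpG content. The Lsm8 promoter holds 21 CpGs, the Gata2 promoter 24, the Pik3r5 promoter 14 and the Il12a promoter 2, beside a median of 6 over all 32851 RefSeq promoter windows of this length. Promoters were found for 109 of the 166 divergent neighbours, and their median was 19 CpGs and 64.4% G and C, against 52.4% over all windows. The motif GGGCGG, searched on both strands, was present in 71.6% of the 109 and in 32.7% of all windows. CCAAT was present in 37.6% and 33.8%, and TATAAA in 1.83% and 12.4%. The windows were not matched for expression, and the 166 neighbouring genes had a median of 2106 normalised counts in wild type, against 310 for named genes. Whether these differences go with the divergent layout was not tested. These matches describe the letters in the windows only.

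HNG loci were short and compact beside named genes. Their spans had a median of 1967 bp (quartiles 869 and 5713), from 136 to 448497 bp. Exon length could be derived for 3322 of them and had a median of 954 bp, against 2740 bp for 15760 named gene rows. Exons covered a median of 57.6% of the span, against 13.3% for named genes, and 91.1% of the loci had exons over less than 95% of their span. The loci lay on 22 chromosomes, 1728 on the plus and 1621 on the minus strand, with 119 on X, 7 on Y and 1 on the mitochondrial genome.

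Many of the rows were not independent of other rows. In all, 421 HNG loci overlapped another HNG locus, always on the opposite strand, 72 overlapped a named gene, also always on the opposite strand, and 436 overlapped other rows such as Gm-numbered or Rik clone names. Overlapping features merged into 3132 separate HNG regions. Members of the 207 overlapping HNG pairs had like values. Over the 182 pairs with both members tested, the log2 fold changes in the authors' deposited table had a Spearman correlation of 0.91 and the same sign in 169. As the kit does not mark strand, the members of such a pair may share reads, and counts are given below both by locus and by region.

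Most HNG loci had few reads in wild-type HSCs. Their median was 8.71 normalised counts, against 310 for named genes, and per kb of exon 6.96 against 323. A mean of at least 10 normalised counts was reached by 1571 loci (46.9%), at least 100 by 357 and at least 1000 by 36. No read was counted in any wild-type library for 68 loci. Libraries 1 to 4 gave 0.504%, 0.506%, 0.396% and 0.427% of their counts to HNG loci, and the ko3a mean 0.567%. A few loci held most of these reads: the 10 highest took 14.0% and the 100 highest 52.7% of HNG counts in wild type.

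The highest locus by normalised counts was HNG_025534 (mm9 chr3:142679061-142737191, 10949 bp of exon), between Pkn2 and Lmo4. It gave 6792, 6608, 4242 and 4262 normalised counts in libraries 1 to 4, and 2805 in the ko3a mean. HNG_026509, which overlaps it on the other strand, gave 3922, 3911, 2544 and 2498, and 1423 in the ko3a mean. Both were lower in libraries 3 and 4 than in 1 and 2 and lowest in the ko3a mean, and neither was called in the authors' deposited table (log2 fold changes -0.96 and -1.18, adjusted p = 0.662 and 0.54). HNG_035383 (chr7:46799770-46835865, 15660 bp of exon), 3985 bp downstream of Zfp619, gave 3798, 3669, 2460 and 2506, and 3165 in the ko3a mean.

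Per kb of exon the order was different and was led by very short loci. HNG_009716 (chr13:54600956-54601168) has 183 bp of exon and gave 1476, 1520, 2699 and 2752 normalised counts, with 2962 in the ko3a mean. It overlaps a row of another kind, so part of its count may be shared. HNG_024632 (chr3:5860355-5860770), with 207 bp, gave 992, 926, 2313 and 2240, and 2107 in the ko3a mean. Both were about as high in the ko3a mean as in libraries 3 and 4 and higher there than in libraries 1 and 2. The overlapping HNG_010118 and HNG_009275 on chromosome 13 gave 2113, 2805, 2976 and 3521 and, on the other strand, 1651, 2283, 2412 and 2791. For these 2 loci, library 1 stood apart from library 2, and library 3 from library 4. Such disagreement inside both pairs, taken as a chi-square above 10 in each (a cut chosen after the values were seen), occurred at 14 of 357 HNG loci with a wild-type mean of at least 100 (3.92%) and at 83 of 13100 features of any kind at that level (0.634%).

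RefSeq lists pseudogenes in the stretches around the most abundant loci per kb. Between the same pair of named neighbours, RefSeq lists at least 1 pseudogene for 8 of the 8 highest loci per kb, and for 1896 of the 3264 HNG loci that could be placed (58.1%). Among loci with a wild-type mean of at least 100, the share was 70 of 83 (84.3%) with under 500 bp of exon and 62 of 139 (44.6%) with at least 2000 bp. Placement was by neighbouring names and not by position, so it does not identify a locus with a pseudogene. The stretches were not matched for length, and a longer one can hold more pseudogenes. Among the 8, HNG_009275 and HNG_010118 overlap and lie in the same stretch. Reads of pseudogenes and of the genes they copy can be split or shared in counting, and the sources used here do not say how such reads were counted, so these levels are uncertain.

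In the comparison with the ko3a arm, 2865 HNG loci had an adjusted p-value in the authors' deposited table. Of these, 72 were called higher at an adjusted p under 0.05 (2.51%, in 68 regions), where 3.15% of all 21778 features tested were called higher, and 121 were called lower (4.22%, in 116 regions), where 3.7% of all features were. The other 484 loci had no p-value and a wild-type mean of at most 4.02 counts. With a mean of both arms of at least 10 normalised counts, 60 of 1513 HNG loci were called higher (3.97%, against 3.71% of features at that level) and 112 lower (7.4% against 4.3%). At a mean of at least 50, 30 of 586 were called higher (5.12% against 3.45%) and 38 lower (6.48% against 3.26%). Of named genes tested at any level, 3.39% were called higher and 3.77% lower. The median log2 fold change over tested HNG loci was -0.27, against -0.10 over all features and -0.05 over named genes. Every called locus lay outside both wild-type pairs in the direction of its call. The smallest called changes in the authors' deposited table were 6.09-fold up and 6.23-fold down. With changes of that size against the mean of both pairs, this was nearly fixed in advance for rises and likely for falls. It therefore adds no support to the calls. Another 1046 tested loci were at least 2-fold apart and not called. Called-higher loci had a median of 3.54 normalised counts in wild type and 70.3 in the ko3a mean, and called-lower loci 53.8 and 2.98.

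Among called loci with a mean of both arms of at least 50 normalised counts, the largest rises were at loci with few wild-type reads. Such loci pass this minimum through their ko3a counts. HNG_023243 and HNG_021160 are an overlapping pair (chr2:75476437-75481204 for the latter) 16 kb from Hnrnpa3, a gene for an RNA-binding protein. HNG_023243 gave 34.8, 31.5, 102 and 98.0 normalised counts in wild type and 28825 in the ko3a mean, for which the authors' deposited table gives a log2 ratio of 8.73 (adjusted p = 3.6e-11). HNG_021160 gave 0, 7.35, 15.3 and 16.0 and 5173, with 8.86 in the authors' deposited table (adjusted p = 3.4e-11). All wild-type libraries were far below the ko3a mean, libraries 3 and 4 were above libraries 1 and 2, and Hnrnpa3 (listed together with Gm6793) was not called, at 5709, 5578, 5054 and 5002 against 5217.

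HNG_009733 (chr13:55285387-55290489) lies 15.3 kb downstream of Fgfr4, a fibroblast growth factor receptor. It gave 34.8, 37.8, 41.2 and 35.8 normalised counts in the 4 libraries, all alike, and 11078 in the ko3a mean, a log2 ratio of 8.16 per the authors' deposited table (adjusted p = 3.9e-10). Fgfr4 had no wild-type read and 0.661 normalised counts in the ko3a mean, so the rise at the locus was not seen in the gene. HNG_017957, 537 bp upstream of the kinase gene Cdkl4, gave 53.8, 66.2, 27.8 and 41.5 and 3192, with 6.04 in the authors' deposited table (adjusted p = 7.5e-07), while Cdkl4 gave 44.3, 39.9, 63.2 and 59.4 and 50.3.

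Some rises started from well-transcribed loci. HNG_007008 (chr11:86623867-86629681), 2705 bp upstream of the helicase gene Dhx40, gave 246, 208, 336 and 340 normalised counts and 11866 in the ko3a mean, a log2 ratio of 5.39 per the authors' deposited table (adjusted p = 6.9e-06). HNG_008827 (chr12:78139323-78154072), whose nearest named gene at 76.1 kb is Max, the partner of Myc proteins, gave 523, 499, 124 and 106 and 9999.6, with 5.00 in the authors' deposited table (adjusted p = 2.9e-05). Here the wild-type pairs differed several-fold and both stayed below the ko3a mean. Between Haao and Zfp36l2, the overlapping HNG_016889 and HNG_017976 gave 365, 355, 128 and 107 against 6766, and 756, 764, 464 and 432 against 11364. Their log2 fold changes in the authors' deposited table were 4.82 and 4.23 (adjusted p = 5.3e-05 and 0.00038), while Haao, 94.5 kb from HNG_017976, was called lower there (-3.71).

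The remaining large rises were a further overlapping pair and a single locus. HNG_042855 gave 11.6, 13.7, 13.4 and 16.0 normalised counts and 843 in the ko3a mean, and HNG_041642 gave 9.50, 15.8, 19.1 and 16.0 and 897. Their nearest named gene at 66.6 and 70.4 kb is Ctnnb1, which encodes beta-catenin. HNG_039385, 2671 bp upstream of Tmco7, gave 2.11, 2.10, 3.83 and 1.88 and 108. All wild-type libraries of these 3 loci lay below 20 normalised counts. Of the 72 called-higher loci, 9 had no wild-type read, so their rise has only a lower bound.

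Among called loci with a mean of both arms of at least 50 normalised counts, the largest falls ended near 0 in the ko3a arm. A locus near 0 in that arm passes this minimum only if it is well transcribed in wild type. Over all called-lower loci the wild-type median was 53.8. HNG_019567 (chr19:37309614-37312141), 10.7 kb downstream of the ubiquitin ligase gene March5, gave 965, 975, 482 and 486 normalised counts and had 0 reads in the ko3a arm. Taking 3 counts over the arm's 4 libraries as the floor, it was at least 720-fold lower, and at least 488-fold lower than libraries 3 and 4 alone (adjusted p = 3.9e-10 in the authors' deposited table). March5 itself gave 3085, 3288, 3278 and 3303 against 6992 and was not called, with a ko3a mean above all of its wild-type libraries.

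HNG_041671 (chr9:122812333-122823259), 7091 bp downstream of the zinc finger gene Zfp167, gave 530, 542, 478 and 431 normalised counts against 0.661, a mean that rests on 2 reads. The ratio has a 95% exact Poisson interval of 206 to 6157, which covers counting error only (adjusted p = 5.5e-09 in the authors' deposited table). HNG_012890 (chr14:97395905-97400852) lies 478 kb from its nearest named gene, Klhl1, and gave 1193, 1127, 1527 and 1507 against 4.30, a log2 ratio of -7.79 per the authors' deposited table (adjusted p = 2.8e-09). In both, the 4 wild-type libraries were close together and the ko3a mean was far below all of them.

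Other falls sat on loci where the wild-type pairs already disagreed. HNG_021609 (chr2:98507096-98507496), 322 bp of exon more than 1 Mb from Lrrc4c, gave 1216, 1213, 65.1 and 87.6 normalised counts against 2.32 (log2 -7.73 in the authors' deposited table, adjusted p = 1.2e-08). This locus overlaps a row of another kind, so part of its count may be shared. HNG_032858 gave 284, 279, 92.8 and 62.2 against 2.98, and HNG_004620 gave 404, 408, 19.1 and 37.7 against 7.61. In each of these the ko3a mean was below both pairs, and libraries 3 and 4 were below libraries 1 and 2, with log2 ratios from -3.99 to -1.86. Of the 121 called-lower loci, 34 were at least 2-fold higher in libraries 1 and 2 than in 3 and 4 and 2 were at least 2-fold lower. No read in the ko3a arm was counted for 16 of the 121. All marker lists given above except the neutrophil one were also lower in the ko3a mean than in both pairs. Their part in these falls was not tested.

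Falls with alike wild-type libraries included HNG_027949, 4306 bp downstream of Fbxo42, with 386, 360, 398 and 325 normalised counts against 4.30. HNG_029251, 14.2 kb upstream of Klf17, gave 110, 122, 112 and 79.2 against 0.661, which rests on 2 reads (ratio interval 43.7 to 1316). HNG_004265, 13.1 kb from Phlda1, gave 107, 137, 84.2 and 89.5 and had 0 reads in the ko3a arm, which is at least 104-fold lower. Phlda1 moved the other way, with 55.9, 68.3, 188 and 214 against 975, and was called higher in the authors' deposited table (log2 2.87, adjusted p = 0.0205).

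**Figure D1:**
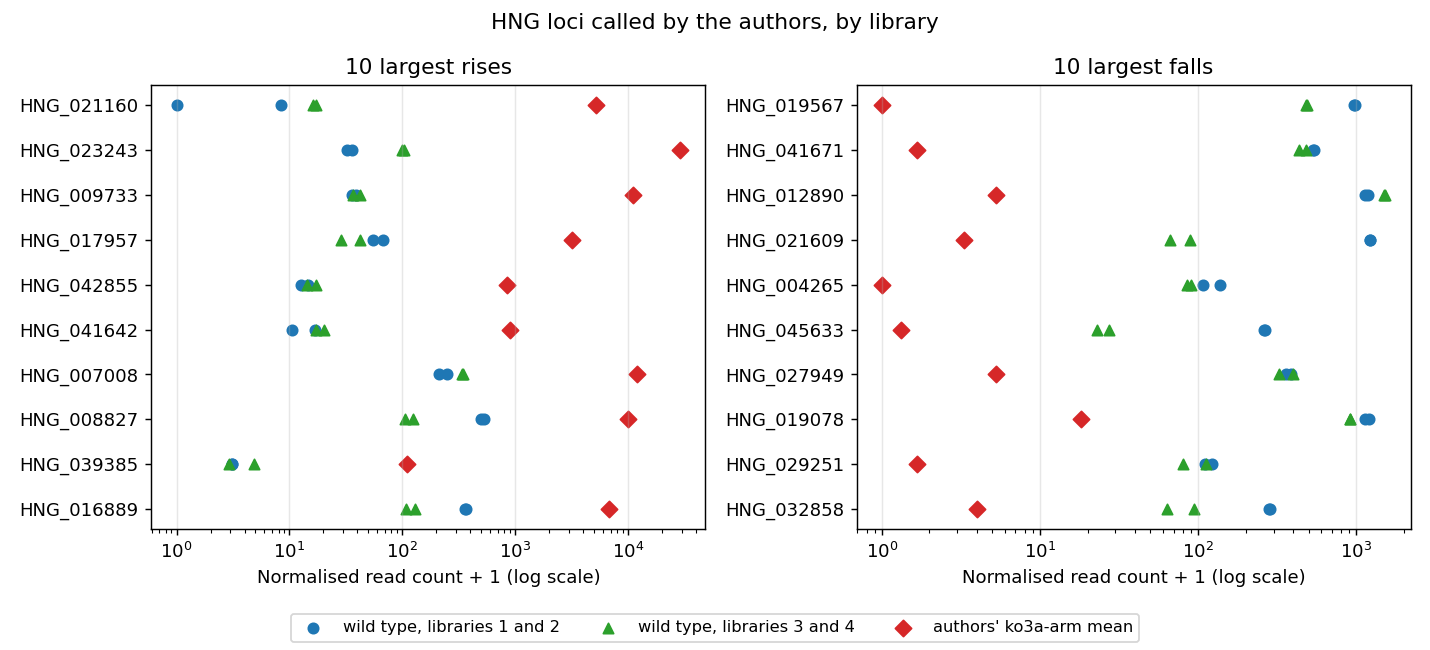
Normalised read counts plus 1 (x axis, log scale) of the called HNG loci that rose most (10) and fell most (10) with a mean of both arms of at least 50; circles are wild-type libraries 1 and 2, triangles libraries 3 and 4, diamonds the authors' ko3a mean on the wild-type scale. The diamonds lie outside all wild-type points at every locus, from 28825 at HNG_023243 to 0 at HNG_019567, and the wild-type pairs stand apart at HNG_021609 and HNG_008827.

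The position of HNG loci was compared with that of named genes. The gap to the nearest named gene had a median of 16553 bp (quartiles 4395 and 66628), and 1324 loci lay within 10 kb of one. Among the 319 loci with a gap of at most 1 kb and no overlap, 166 were divergent (52.0%), 71 lay upstream on the same strand, 53 downstream on the same strand and 29 convergent. The divergent share was 22.4% of 500 loci at 1 to 5 kb, 24.9% of 433 at 5 to 10 kb and 25.6% of 1011 beyond 50 kb, so it was higher in the first kb than at any of these distances. Orientation here rests on the strand listed for each locus, which the kit does not mark. Whether stretches close to a gene on its own strand were joined to that gene is not stated. The shares within 1 kb may therefore depend on how loci were named. Divergent loci within 1 kb had a median of 10.1 normalised counts in wild type beside 2106 for their genes, and 163 of the 166 were below their gene.

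**Figure D2:**
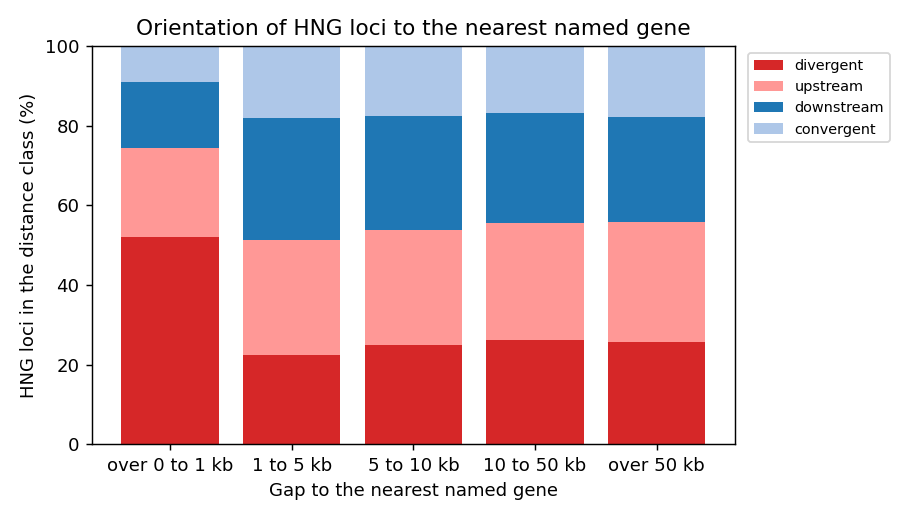
Share of HNG loci (y axis, percent) in each orientation to the nearest named gene, by the gap between their spans (x axis), leaving out overlapping loci. The divergent share is 52.0% up to 1 kb and between 22.4% and 26.1% in every class beyond it. Orientation rests on the listed strand, which the kit does not mark.

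Where an HNG locus and its nearest named gene within 10 kb were both called, they were called in the same direction. This held for 14 loci beside 13 genes, 8 pairs higher and 6 lower, with 0 in opposite directions. It was the smaller share of called loci: of 29 called-higher loci within 10 kb, 21 had a nearest gene that was not called, and of 43 called-lower loci, 31 had a tested gene without a call and 6 a gene that was not tested. Over all HNG loci within 10 kb of a tested gene, 3.96% of 1213 nearest genes were called higher and 2.72% lower. Across loci, the fold changes of locus and gene were set side by side as a description. At a locus mean of both arms of at least 50, Spearman's coefficient was -0.03 over 35 divergent, 0.48 over 32 convergent, 0.14 over 38 downstream and 0.09 over 52 upstream loci, and 0.76 over 31 loci that overlap their gene and may share its reads. Over tested loci of any level the order was different, with 0.26 over 317 divergent, 0.15 over 137 convergent, 0.36 over 259 downstream, 0.19 over 278 upstream and 0.65 over 64 overlapping loci. All points share the same libraries. Seen from the genes, 8 of 44 tested loci beside a called-higher gene were called higher, and 6 of 27 beside a called-lower gene were called lower. Over all tested HNG loci, 2.51% were called higher and 4.22% lower, beside 3.15% and 3.7% of all features tested.

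Among the rises, HNG_013699 lies 6031 bp upstream of Nr4a1, an orphan nuclear receptor that is induced early after stimulation. The locus gave 11.6, 5.25, 8.61 and 11.3 normalised counts against 187 (log2 4.18 in the authors' deposited table, adjusted p = 0.00077). Nr4a1 gave 400, 391, 18341 and 18464 against 64344 (log2 2.77, adjusted p = 0.026). The gene was far higher in libraries 3 and 4 than in 1 and 2, whereas the locus was alike in all 4, so they did not move together between the wild-type pairs.

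HNG_007101, 5167 bp upstream of the integrin gene Itga3, gave 11.6, 4.20, 2.87 and 9.42 normalised counts against 85.0, while Itga3 gave 398, 428, 547 and 607 against 51626. HNG_015575, 691 bp downstream of the palmitoyltransferase gene Zdhhc23, gave 7.39, 10.5, 6.70 and 4.71 against 73.1, and Zdhhc23 gave 77.0, 76.7, 87.1 and 77.3 against 685. HNG_019726, 6266 bp downstream of the MAP kinase phosphatase gene Dusp5, gave 0, 1.05, 0.957 and 1.88 against 23.2, and Dusp5 gave 128, 136, 963 and 1026 against 4880. In all 3, each wild-type library was below the ko3a mean for gene and locus alike.

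HNG_032934, HNG_042254 and HNG_027626, near Sema4f, Neo1 and Cited4, had no wild-type read. In the ko3a mean they stood at 67.8, 12.9 and 11.6 normalised counts, at least 90.5-fold, 17.2-fold and 15.5-fold higher against 3 counts over the wild-type libraries. Sema4f and Neo1 encode a semaphorin and a netrin receptor, and Cited4 a transcriptional co-activator. Cited4 gave 121, 128, 185 and 205 against 8095, and Neo1 1404, 1326, 2472 and 2629 against 36081. HNG_030206, 9529 bp from Sel1l3, had 2 wild-type reads and 14.9 normalised counts in the ko3a mean (ratio interval 7.79 to 254). The loci near Cited4, Neo1 and Sel1l3 were all below 15 normalised counts in both arms.

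Among the falls, HNG_005115 and HNG_006678 both lie upstream of Pik3r5, which encodes a regulatory subunit of phosphoinositide 3-kinase gamma. HNG_006678 (chr11:68243365-68245515) starts 112 bp away in divergent orientation, at the promoter shown above, and gave 50.7, 49.4, 16.3 and 20.7 normalised counts against 3.64 (log2 -2.79 in the authors' deposited table, adjusted p = 0.0496). HNG_005115, 5448 bp upstream on the gene's strand, gave 88.7, 101, 13.4 and 12.3 against 0.661, which rests on 2 reads (ratio interval 21.4 to 649). Pik3r5 gave 479, 452, 414 and 366 against 46.0 (log2 -3.16, adjusted p = 0.0103). The gene varied little between the wild-type pairs, and both loci were lower in libraries 3 and 4.

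HNG_019078 lies 675 bp past the end of Mc5r, a melanocortin receptor gene, on the other strand. The locus gave 1206, 1130, 914 and 918 normalised counts against 17.2, and Mc5r gave 800, 694, 589 and 538 against 13.2, with log2 fold changes of -5.78 and -5.49 in the authors' deposited table. HNG_006606, 1024 bp from the end of Tnfrsf13b, which encodes the TACI receptor of B cells, gave 732, 712, 972 and 982 against 121, and Tnfrsf13b gave 232, 236, 222 and 252 against 29.8. The changes of locus and gene were of like size in both cases. Beside Zfp167 and Tmem17 the loci fell further than the genes: -8.14 at HNG_041671 against -3.46, and -4.68 at HNG_004620 against -2.63, on the log2 scale of the authors' deposited table.

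**Figure D3:**
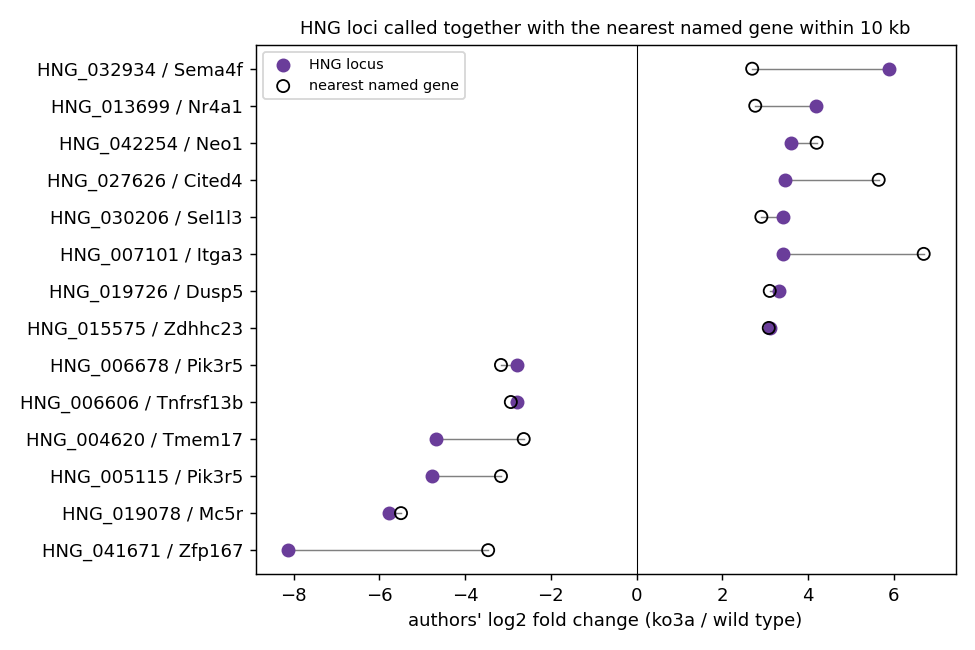
Log2 fold change, ko3a over wild type, from the authors' deposited table (x axis) for the 14 HNG loci called together with the nearest named gene within 10 kb (filled circles) and for that gene (open circles). Each pair lies on the same side of 0, and the distance within a pair is largest at HNG_041671 and Zfp167.

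Other loci beside changed or unchanged genes did not follow this pattern. HNG_033712 (chr6:18793162-18798125) starts 510 bp from Naa38, at the Lsm8 promoter shown above, and points away from it. It gave 765, 779, 854 and 834 normalised counts against 11121 (log2 3.78 in the authors' deposited table, adjusted p = 0.0015), while the gene gave 1587, 1397, 1416 and 1471 against 979 and was not called. HNG_025901, 543 bp from Il12a, which encodes a subunit of interleukin 12, gave 67.5, 45.2, 56.5 and 49.0 against 4.96 (adjusted p = 0.0228), while Il12a gave 623, 636, 346 and 369 against 179 and was not called (adjusted p = 0.39). HNG_033712 also overlaps a row of another kind, so part of its count may be shared.

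HNG_027000 (chr4:48040423-48055905, 15459 bp of exon) lies 8215 bp upstream of Nr4a3, a relative of Nr4a1 on the same strand. Nr4a3 gave 11.6, 4.20, 5.74 and 8.48 normalised counts against 12664, a log2 ratio of 10.53 per the authors' deposited table. The locus gave 544, 585, 93.8 and 103 against 258 and was not called (log2 -0.36, adjusted p = 0.938). So the gene was near 0 in all wild-type libraries where the locus was well above it. HNG_015225, 348 bp from Glis2 in divergent orientation, gave 386, 337, 25.8 and 23.6 against 657 and was not called, while Glis2, a zinc finger gene, gave 1042, 1040, 998 and 927 against 6768 and was called higher.

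HNG loci near genes with known roles in blood cells and DNA methylation were taken from 11 lists. The lists hold 155 genes: stem cell, neutrophil, erythroid, lymphoid, mast and stromal markers, haematopoietic transcription factors and receptors, immediate early genes, DNA methylation enzymes and imprinted genes. For 24 HNG loci, the nearest named gene within 10 kb was one of them, where 1324 loci lay that near to any of 19284 named gene rows. Of the 24, 21 were tested, 1 was called higher (HNG_013699 beside Nr4a1) and 0 lower, where 3.15% and 3.7% of all features tested were called, and the authors' deposited table gives them a median log2 ratio of -0.19. None lay near an erythroid, lymphoid, mast or stromal marker. HNG_034249, 298 bp from Gata2 and pointing away from the promoter shown above, gave 472, 541, 242 and 288 normalised counts against 593, while Gata2 gave 20154, 20104, 22400 and 22161 against 37138. HNG_025087, 1380 bp past the end of Il6ra, the interleukin 6 receptor gene, gave 123, 106, 172 and 169 against 142. Near Dnmt3a and Tet2, HNG_008475 and HNG_025481 stayed below 12 normalised counts in every library.

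Other listed genes had a call of their own without one at the locus. Klf4, Cebpb and Hoxb4, which encode transcription factors, were called higher in the authors' deposited table (log2 3.05, 3.30 and 2.73). Klf4 gave 25.3, 35.7, 593 and 616 normalised counts against 2643, while HNG_027068, 806 bp away in divergent orientation, gave 7.39, 9.45, 3.83 and 4.71 against 5.29. HNG_022442, upstream of Cebpb, stayed between 0.942 and 11.6, and HNG_007124, divergent from Hoxb4, gave 4.22, 3.15, 0 and 2.83 against 12.2. At these levels a change of the locus was not detectable unless large. HNG_021633, 7214 bp upstream of the stem cell gene Lmo2, gave 15.8, 27.3, 44.0 and 49.0 against 196 and just missed a call in the authors' deposited table (log2 2.47, adjusted p = 0.0586), and Lmo2 gave 39197, 38972, 41765 and 41351 against 45108.

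Near markers of other cell types and imprinted genes, locus and gene could be set side by side in 4 cases. HNG_041567, 86 bp downstream of the neutrophil gene Ltf, gave 71.8, 48.3, 2.87 and 0.942 normalised counts against 20.8. Ltf, which encodes lactoferrin, gave 6818, 6709, 804 and 823 against 3579, so both were highest in libraries 1 and 2, lowest in libraries 3 and 4 and in between in the ko3a mean. HNG_002955, 413 bp downstream of Elane, gave 62.3, 28.4, 41.2 and 80.1 against 36.4, while Elane, which encodes neutrophil elastase, gave 2024, 2098, 857 and 900 against 1301, so the gene showed that order and the locus did not. HNG_004555 and HNG_038536, near the imprinted genes Grb10 and Cdkn1c, gave 50.7, 49.4, 9.57 and 11.3 against 36.0, and 77.0, 69.3, 18.2 and 17.9 against 38.4. Neither locus was called, and in both the ko3a mean lay between the wild-type pairs. The genes went the other way between the pairs: Grb10 gave 7674, 7618, 9274 and 9084 against 8153, and Cdkn1c 1086, 1159, 1848 and 1777 against 2563.

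Between the wild-type pairs, HNG loci differed mainly in one direction. Among the 357 with a mean of at least 100 normalised counts, 63 were at least 2-fold lower in libraries 3 and 4 (17.6%, against 4.54% of 13100 features at that level), in 58 regions, and 9 were at least 2-fold higher (2.52%, against 1.6%). The 63 had a median of 7704 bp of exon and the 9 a median of 238 bp. The neutrophil markers, at 0.119% and 0.0229% of counts, moved in the same direction as the 63; their part in the result was not tested.

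The difference followed exon length, in a split at 500 and 2000 bp chosen after the values were seen. The median log2 ratio of libraries 3 and 4 to libraries 1 and 2 was 0.34 for 84 loci under 500 bp, 0.11 for 129 from 500 to 2000 bp and -0.66 for 144 of at least 2000 bp. Of the 144, 59 were at least 2-fold lower and 0 higher. Named genes at that level had medians of 0.27 under 500 bp (74 genes), 0.14 from 500 to 2000 bp (2862) and 0.02 from 2000 bp (7810), so short named genes and short HNG loci had like values and the long classes differed. Restricted to wild-type means from 100 to 1000, 57 of 124 long HNG loci (46.0%) and 141 of 2036 long named genes (6.93%) were at least 2-fold lower. Loci whose exons filled at least 95% of their span had a median of -1.52 (52 loci), and loci with more of a gap in their span -0.01 (305 loci). Among 229 named genes filled to that degree the median was 0.15.

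Single loci show the size of the difference. HNG_016352 (chr17:31858809-31869045, 4047 bp of exon) gave 354, 370, 19.1 and 29.2 normalised counts, with 152 in the ko3a mean. HNG_015204 (chr16:3625675-3633293) gave 416, 358, 24.9 and 25.4, with 44.3. In the other direction, the overlapping HNG_038663 and HNG_039696, with 149 and 165 bp of exon, gave 77.0, 71.4, 258 and 245 and 83.4, 75.6, 259 and 246, with 215 and 217 in the ko3a mean. Libraries agreed within each pair at all 4 loci.

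The same length classes differed in the ko3a comparison. Per the authors' deposited table, the median log2 ratio of ko3a to wild type was 0.17 for loci under 500 bp and 0.05 from 500 to 2000 bp. It was -0.76 for at least 2000 bp, where 7 were called higher and 29 lower. These loci were taken at a wild-type mean of at least 100. Choosing on wild type alone admits falls more readily than rises, since called-higher loci had a wild-type median of 3.54. Under 500 bp, 0 were called higher and 1 lower. The closest share over all features is at another minimum: with a mean of both arms of at least 50, 3.45% were called higher and 3.26% lower. It was not split by exon length. At wild-type means from 100 to 1000, 20.2% of the 124 long HNG loci and 7.76% of the 2036 long named genes were called lower, and 5.65% and 5.60% were called higher. The comparison shares its wild-type libraries with the one between pairs, so the 2 patterns are not independent. Of the 63 loci lower in libraries 3 and 4, the ko3a mean was below both pairs at 18, between them at 27 and above both at 18.

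**Figure D4:**
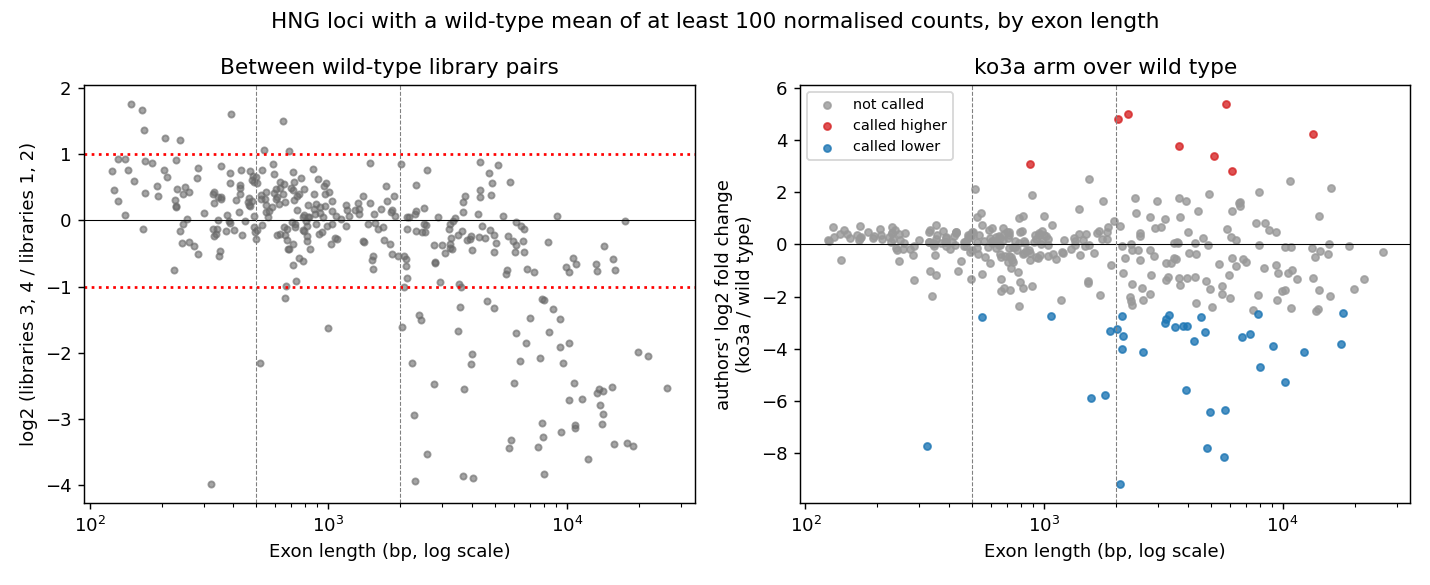
HNG loci with a wild-type mean of at least 100 normalised counts by exon length (x axis, bp, log scale). Left, the log2 ratio of wild-type libraries 3 and 4 to 1 and 2, with dotted lines at 2-fold; right, the log2 fold change of the ko3a arm from the authors' deposited table, coloured by call. Loci beyond the dashed line at 2000 bp spread downward in both panels, with 59 of 144 below the lower dotted line on the left.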

How the data were processed

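Per the labels' protocols, RNA of sorted HSCs was purified (Qiagen RNeasy Micro), selected for polyA and prepared with a TruSeq RNA kit. The authors deposited whole-number counts per feature for each wild-type library and the mean count of the ko3a arm. Per the submitters' processing notes, mm9 was a genome build and DESeq a tool; aligner, counting tool and annotation are not stated in these sources. The authors also deposited a length-scaled signal, used only to derive exon length, a log2 fold change, an adjusted p-value and a direction score.

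Each wild-type library was scaled by a median-of-ratios size factor over all features (0.948, 0.952, 1.04 and 1.06). The ko3a mean was put on that scale by an offset of 0.40 on the log2 scale, the median over 10339 features. At low counts the deposited log2 fold change is mostly nearer to 0 than the log2 ratio of the means: this held for 928 of 930 HNG loci with reads in both arms, a mean under 20 and at least a 2-fold ratio. Among the 30 columns, 8 with values of single libraries match no sample here and stayed unused. With 3 counts as the floor, a locus without reads may reach 0.0737 CPM in library 1. Floors and intervals cover counting error only.

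Calls between genotypes come from the authors' deposited table, and no further test was made. With 1 biological replicate labelled in wild type, p-values measure only the spread between these libraries, which may be technical. The chi-square used loci with at least 20 reads. A named gene is a row with a symbol in the reference name tables, leaving out Gm, Rik, Mir, Snor, HND, 7SK and U-RNA names, an exclusion extended after the table was seen. Gaps are between spans, on either strand.

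Loci named were the 8 highest by normalised count and per kb, the 10 largest called rises and falls with a mean of arms of at least 50, the 4 largest differences each way between wild-type pairs (wild-type mean 100 or more), up to 10 loci called together with a gene within 10 kb, and up to 10 near a listed gene (same minimum). Others were added after their values were seen. Members and lists were chosen with earlier results of these data known. Python 3.11.15, pandas 2.3.3, scipy 1.17.1 and edgeR 4.0.16 (TMM factors) were used.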

Additional observations from a re-analysis of the deposited data

How the results depend on the processing

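At an adjusted p under 0.01, 35 HNG loci were called higher and 45 lower in the authors' deposited table. The share of all features called at that cut was not computed, so these counts have no comparison. The count of detected loci was 3281 with at least 1 read and 601 with at least 50 normalised counts. Lowering the wild-type mean to 50 gave 17 loci at least 2-fold higher and 127 lower in libraries 3 and 4. Without overlapping loci, a setting added after seeing the data, 4 were higher and 43 lower, and with 1 library left out the higher count ran from 10 to 14 and the lower from 60 to 64. Within 50 kb of a named gene lay 2338 loci, with 22 called in the same direction as the gene and 2 in opposite directions. Within 5 kb, 6 were called together. The same strand alone gave 739 loci and 9 called together, the opposite strand 725 and 5, and any row in place of a named gene 1999 and 26.

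The median of the long loci ran from -0.61 to -1.18 over 6 added settings. Against libraries 3 and 4 alone, 72 called-higher and 115 of the called-lower loci were still at least 2-fold apart. For the called-higher loci this followed from the size of the called changes, so it does not test them. The authors' calls could not be recomputed with a library left out. No paired analysis was possible because the values of single ko3a libraries match no sample here and were not used. Depth limits most loci: under 10 normalised counts, a called change rests on few reads.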

Other observations

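Of the 7 HNG loci on the Y chromosome, HNG_045633 and HNG_045632, which lie next to each other, were called lower in the authors' deposited table. Over all features tested, 3.7% were called lower. HNG_045626 and HNG_045630, also among the 7, had no p-value. HNG_045633 gave 265, 261, 22.0 and 26.4 normalised counts in the wild-type libraries and 0.331 in the ko3a mean, which rests on 1 read (95% exact Poisson interval of the ratio 74.2 to 16429, counting error only). HNG_045632 gave 48.5, 59.9, 5.74 and 6.60 against 0.331, also 1 read (interval 15.4 to 3488). Both were lower in libraries 3 and 4 than in the other pair, with log2 ratios of -3.44 and -3.14. HNG_045619, near Uty, gave 126, 120, 31.6 and 27.3 against 94.9 and was not called.

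Y-linked genes differed among themselves. Mean normalised counts of Ddx3y were 3979 (libraries 1 and 2), 3825 (libraries 3 and 4) and 14269 (ko3a). Those of Uty were 2115, 2269 and 2461, those of Eif2s3y 3288, 2291 and 5303, and those of Kdm5d 2757, 2087 and 1302. Kdm5d thus had the same order as the loci, Eif2s3y was lower in libraries 3 and 4 only, and none of the 4 was called in the authors' deposited table. The X-linked gene Xist had means of 111 (libraries 1 and 2), 17.1 (libraries 3 and 4) and 99.5 (ko3a), and was not called either.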
